A study of Homo sapiens with 4 samples.

Results

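Heat shock proteins of the cytosol and the mitochondrion are described here across 4 RNA libraries of the A375 human melanoma line. The members were the 9 entries of the gene count tables whose symbol is HSPA8, HSPA9, HSPA4, HSPH1, DNAJB1, HSP90AA1, HSP90AB1, HSPD1 or HSPE1, out of 46416 gene entries in all. A375-R denotes cells resistant to encorafenib, a BRAF kinase inhibitor, and A375-S the sensitive cells. Each line was sequenced once after 10 nM encorafenib for 48 h and once with no treatment, so every group held 1 library. Both lines are labelled BRAF-mutated, and how the resistant cells were selected was not stated in the labels.

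As background, these proteins form a folding relay. HSPA8 is the constitutive HSP70 of the cytosol, DNAJB1 is an HSP40 that delivers clients to it and stimulates its ATPase, and HSPA4 and HSPH1 are HSP110 proteins that release its nucleotide. HSP90AA1 and HSP90AB1 are the cytosolic HSP90 isoforms, which mature kinases handed over from HSP70, oncogenic BRAF among them. In the mitochondrion HSPA9 (mortalin) pulls in and folds imported proteins, and HSPD1 (HSP60) with its lid HSPE1 (HSP10) forms the folding chamber. Heat shock factors switch on many of these genes through repeats of the bases GAA and TTC, and HSPA8 and HSPA9 carry small nucleolar RNA (snoRNA) genes in their introns.

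The heat shock factor repeat is shown first, since it is what several of these genes are known to share. The 300 bases from 250 before to 50 past each annotated start (RefSeq, GRCh38.p14) were searched for 3 alternating units, GAANNTTCNNGAA or TTCNNGAANNTTC, which are each other's reverse complement, so that both strands were covered. Of 35116 such windows over all genes, 172 (0.490%) held the repeat, as did 4 of the 15 windows of members. By gene these were 0.608% of all 27305 genes and 4 of the 9 members (HSPA8, HSP90AA1, HSP90AB1 and HSPD1). The HSPD1 stretch (197500061 to 197500090) ends just short of the window of its neighbour HSPE1 (197500129 to 197500428). That HSPE1 was without the repeat therefore holds only for that window. The 2-unit form, GAANNTTC or TTCNNGAA, every 3-unit match included, was found in 16.2% of all genes and in 6 of the 9 members, DNAJB1 and HSPA9 being the others. A match describes the letters of the window and no binding was measured. One stretch of 30 bases for each 3-unit member and for DNAJB1, 5′ to 3′ on the gene's strand with the matching letters in capitals, reads as follows.
HSPA8 (chr11:123062345-123062374, minus strand): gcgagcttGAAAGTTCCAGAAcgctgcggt
HSP90AA1 (chr14:102087111-102087140, minus strand): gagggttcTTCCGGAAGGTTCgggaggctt
HSP90AB1 (chr6:44247770-44247799, plus strand): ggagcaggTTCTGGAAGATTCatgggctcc
HSPD1 (chr2:197500061-197500090, minus strand): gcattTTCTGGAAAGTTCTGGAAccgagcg
DNAJB1 (chr19:14518456-14518485, minus strand): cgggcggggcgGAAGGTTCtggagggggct

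The snoRNAs in the introns of 2 members are shown for the same reason, since their levels are set beside those of their host genes further on. They are box C/D snoRNAs, a class that guides ribose methylation or processing of ribosomal RNA, and their sequences are from GENCODE v29 (GRCh38). Capitals mark the first TGATG (box C) and, near the 3′ end, the last CTGA (box D), which SNORD14D does not hold in this form.
SNORD63, in HSPA9 (chr5:138561043-138561110, minus strand): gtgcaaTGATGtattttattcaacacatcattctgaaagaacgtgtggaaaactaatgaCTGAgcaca
SNORD14C, in HSPA8 (chr11:123059335-123059422, minus strand): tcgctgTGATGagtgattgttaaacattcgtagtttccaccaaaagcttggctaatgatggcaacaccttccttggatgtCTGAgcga
SNORD14D, in HSPA8 (chr11:123058909-123058995, minus strand): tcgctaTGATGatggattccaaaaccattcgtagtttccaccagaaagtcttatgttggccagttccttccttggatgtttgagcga
SNORD14E, in HSPA8 (chr11:123058077-123058161, minus strand): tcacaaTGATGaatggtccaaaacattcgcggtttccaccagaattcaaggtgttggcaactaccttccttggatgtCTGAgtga
The 3 SNORD14 copies were 75.3% to 78.9% identical to each other in pairwise alignment, and each was 50.5% to 52.3% identical to SNORD63.

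The libraries held 20507667 to 33664470 counts, of which ribosomal RNA made up 88.7% to 93.8% and protein-coding genes 0.845% to 1.5%, the lowest share being that of sensitive cells on encorafenib. Members summed to 1573 counts in resistant cells on encorafenib, 2024 in untreated resistant cells, 929 in sensitive cells on encorafenib and 2375 in untreated sensitive cells. As a share of protein-coding counts these were 0.512%, 0.619%, 0.430% and 0.546% in the same order, so that the share was lower on encorafenib in both lines. Scaled counts below are counts divided by library size after TMM scaling (trimmed mean of M values, over 8865 entries with at least 10 counts in 1 or more libraries). All 9 members passed that minimum, the lowest member count being 12. In bulk RNA, fewer cells of a type and less RNA per cell cannot be told apart. The melanocyte transcription factor SOX10 had 73 to 157 counts in every library, while the pigment genes PMEL, MLANA, TYR and TYRP1 had at most 1. Other melanocytic markers moved with the drug: DCT had 145 against 1 counts in resistant cells (encorafenib against untreated) and 332 against 0 in sensitive cells. MITF had 59 against 19 and 45 against 31 counts, and S100B 134 against 49 and 63 against 53, in the same order. The 8 markers summed to 429 against 159 scaled counts in resistant and 727 against 173 in sensitive cells, and 3 of the 4 at the count minimum were clearly higher with drug in each line. Fibroblast and endothelial markers had at most 6 counts each, as did the epithelial and immune ones other than KRT18 (8 to 101), CD68 (6 to 35) and LYZ (0 to 13). The part of these transcripts in the results was not tested. The drug's known output DUSP6 had 24 against 127 counts in resistant cells (encorafenib against untreated) and 12 against 117 in sensitive cells. SPRY4, another target of the pathway, had 4 against 46 and 0 against 112 counts in the same order, and a count of 0 allows up to 4.25 scaled counts there.

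Between genes, levels were compared per kilobase of the longest annotated transcript. The libraries were made with a small-RNA kit, so counts of coding genes need not follow the levels of full-length mRNA. Whether they do was not tested. HSP90AB1 had the highest mean over the 4 libraries (162 scaled counts per kilobase), followed by HSPA8 (139) and HSP90AA1 (110). Next in order came HSPD1 (49.3) and HSPE1 (41.7), the 2 parts of the mitochondrial folding chamber, which changed places in untreated resistant cells (52.2 and 76.2). By the same mean HSPH1 (23.8), DNAJB1 (22.9) and HSPA4 (19.6), the partners of HSP70, were lower, and HSPA9 (11.2) was lowest. Each of the first 3 genes was above every other member in every library. Their own order changed: HSP90AB1 led in both untreated libraries, with 218 in resistant and 194 in sensitive cells, whereas HSPA8 led in both encorafenib libraries, with 148 in resistant and 124 in sensitive cells. In resistant cells on encorafenib HSPA8 and HSP90AB1 (142) did not differ beyond their counting intervals. HSPH1, DNAJB1 and HSPA4 exchanged places between libraries. In resistant cells on encorafenib DNAJB1 (32.4) stood above HSPH1 (21.3) and HSPA4 (18.3), and the order of these genes was not tested. HSPE1 (29.7) was below DNAJB1 in that library. In sensitive cells on encorafenib HSPE1 (17.9) was below HSPH1 (23.7) and HSPA4 (18.5). With coding length in place of transcript length 5 of the 9 ranks stayed the same, and with the median transcript length 2 did. With the median length the order began with HSP90AA1 (653), HSPA8 (341), HSPD1 (178) and HSP90AB1 (166), and HSPH1 (35.4) was lowest, so the order depends on the length used from its top to its end.

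**Figure D1:**
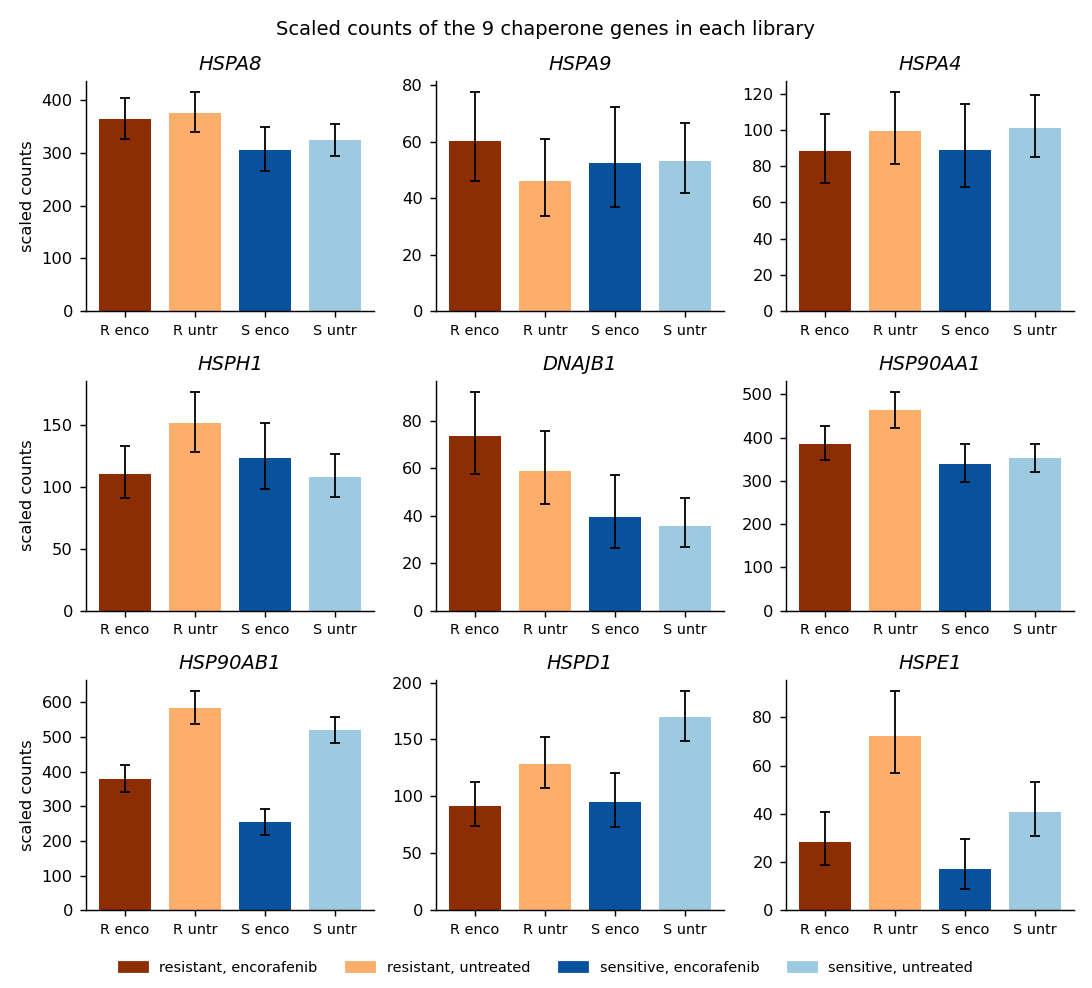
Scaled counts (y axis, from 0) of each member in the 4 libraries, resistant (R) and sensitive (S) cells on encorafenib (enco) or untreated (untr). Bars are single libraries and error bars 95% Poisson intervals, which cover counting error only; HSP90AB1, HSPD1 and HSPE1 are lower on encorafenib in both lines, and DNAJB1 is higher in resistant cells.

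Members differed widely in how much they moved among the 4 libraries. The highest library was 4.26 times the lowest for HSPE1, 2.30 times for HSP90AB1, 2.05 times for DNAJB1 and 1.85 times for HSPD1. The other 5 ranged from 1.14 times for HSPA4 to 1.40 times for HSPH1. Ratios between libraries are given below in log2 with a 95% exact interval on the counts. With 1 library per group there is no replicate check, the intervals cover counting error only, and PCR copies are not independent molecules. A ratio is called clear where its interval leaves out 0, and beyond 2-fold where the interval's nearer bound is at least 1 in log2. High counts give narrow intervals, so abundant genes can be clear at small ratios. The background includes entries with as few as 10 counts in 1 library, and its shares were not matched for abundance. No member was beyond 2-fold in any comparison, against 4.95% of all 8865 entries for encorafenib in resistant cells and 6.06% for encorafenib in sensitive cells. For resistant over sensitive cells the background was 3.95% on encorafenib and 4.03% untreated.

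With encorafenib the HSP90 gene HSP90AB1 and the mitochondrial chaperonin genes HSPD1 and HSPE1 were clearly lower in both lines, while HSPA8, HSPA9, HSPA4 and DNAJB1 showed no clear difference in either. In resistant cells 5 of 9 members were clearly lower with the drug and 0 higher, against a background of 9.36% of entries lower and 12.2% higher. In sensitive cells 3 of 9 were clearly lower and 0 higher, against 13.2% lower and 14.7% higher. These background shares were not matched to the members' counts, so an excess over them is not by itself a trait of the members. The median member log2 ratio was −0.26 in resistant and −0.08 in sensitive cells, and that of the protein-coding genes tested was −0.02 in resistant and −0.06 in sensitive cells. Scaling by total counts, which are mostly ribosomal RNA, left 2 clearly lower in resistant cells (HSP90AB1 and HSPE1) and gave 8 in sensitive cells. That scaling moved the median gene by 0.13 in resistant and −0.58 in sensitive cells. The shares of all entries clearly lower under it were not computed.

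HSPE1, the lid of the mitochondrial chaperonin, had 28 counts in resistant cells on encorafenib against 74 untreated, and 12 in sensitive cells on encorafenib against 57 untreated. Per library these were 28.2 against 72.4 scaled counts in resistant and 17.0 against 40.9 in sensitive cells. Both treated libraries lay below both untreated ones. The log2 ratio was −1.35 (interval −2.04 to −0.72) in resistant and −1.22 (−2.30 to −0.35) in sensitive cells. A readthrough entry, HSPE1-MOB4, shares exons with HSPE1 and had 17 against 10 counts in resistant and 10 against 8 in sensitive cells. With those counts added to HSPE1 the ratios were −0.85 and −0.56, and the interval in sensitive cells then held 0. The rule by which reads fitting both entries were assigned was not stated.

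HSPD1, which builds the chamber itself, had 91 counts on encorafenib against 131 untreated in resistant cells and 67 against 236 in sensitive cells. The log2 ratio was −0.48 (−0.89 to −0.09) in resistant and −0.83 (−1.25 to −0.44) in sensitive cells. Scaled, the treated libraries were alike at 91.5 in resistant and 94.9 in sensitive cells, and the untreated ones were higher at 128 and 169. HSPD1 and HSPE1 lie head to head on opposite strands of chromosome 2 with overlapping exons in the annotation, and whether counting used strand is not given.

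HSP90AB1, the constitutive HSP90, had 378 counts on encorafenib against 597 untreated in resistant cells and 179 against 724 in sensitive cells. Scaled, that was 380 against 584 in resistant and 254 against 520 in sensitive cells, with both treated libraries below both untreated ones. The log2 ratio was −0.62 (−0.81 to −0.43) in resistant and −1.03 (−1.28 to −0.80) in sensitive cells. The stress-inducible isoform HSP90AA1 had 383 against 473 counts in resistant and 240 against 490 in sensitive cells. Its log2 ratio was −0.26 (−0.46 to −0.07) in resistant and −0.05 (−0.28 to 0.18) in sensitive cells.

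The remaining members are those of the HSP70 system. HSPH1 had 110 against 155 counts in resistant cells (−0.45, −0.82 to −0.09) and 87 against 151 in sensitive cells (0.19, −0.21 to 0.58). HSPA8 had 362 against 385 counts in resistant and 216 against 452 in sensitive cells, with log2 ratios of −0.05 (−0.26 to 0.16) and −0.08 (−0.32 to 0.15). Among members with no clear drug difference in either line, HSPA8 had the narrowest intervals. HSPA4 had ratios of −0.17 in both lines, from 88 against 102 counts in resistant and 63 against 141 in sensitive cells. HSPA9 had 60 against 47 counts in resistant cells (0.39, −0.18 to 0.98) and 37 against 74 in sensitive cells (−0.01, −0.63 to 0.57). DNAJB1 had 73 against 60 counts in resistant cells (0.32, −0.19 to 0.84) and 28 against 50 in sensitive cells (0.16, −0.58 to 0.84). At counts this low the intervals for HSPA9 and DNAJB1 span from lower to higher, so no drug difference was detectable at this depth.

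**Figure D2:**
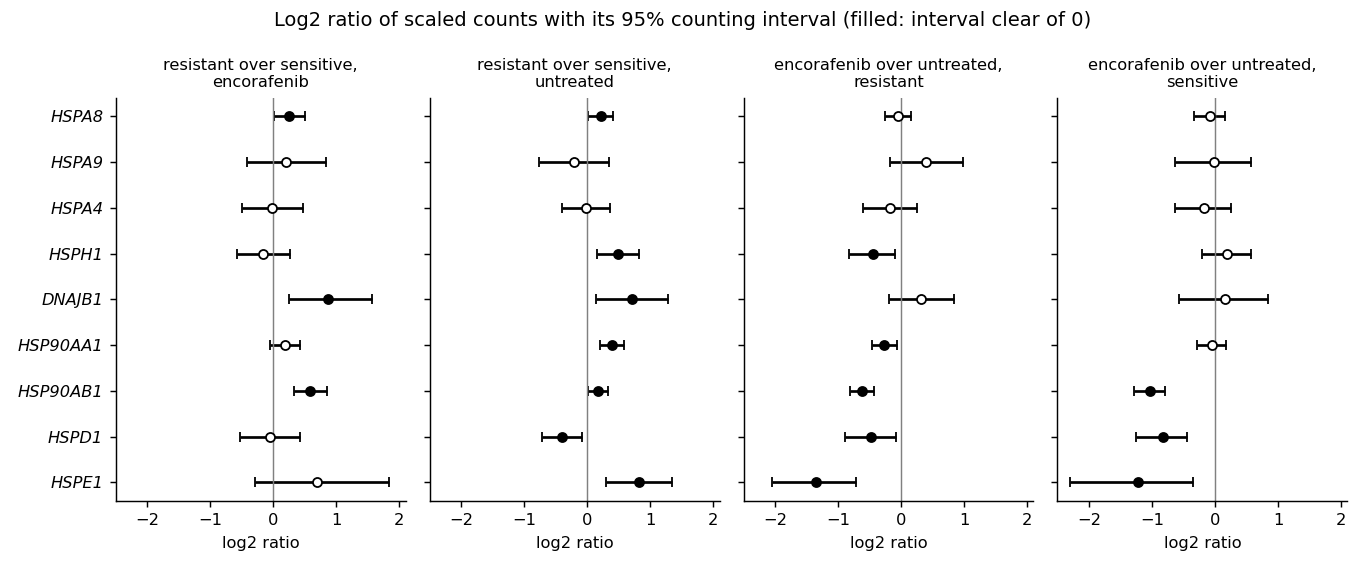
Log2 ratio of scaled counts (x axis) for each member in the 4 comparisons, with points at the ratio and bars for the 95% counting interval; filled points have an interval clear of 0. Filled points lie left of 0 for HSP90AB1, HSPD1 and HSPE1 in both drug comparisons, and right of 0 for DNAJB1 and HSP90AB1 in both comparisons of the lines.

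Between the lines, most clear differences among members were higher values in resistant cells. In untreated cells 6 of 9 members were clearly higher in resistant than in sensitive cells and 1 was lower, against 12.7% of all entries higher and 11.4% lower. On encorafenib 3 of 9 were clearly higher and 0 lower, against 11.3% higher and 8.78% lower. Here too the background was not matched to the members' counts, and abundant members such as HSP90AB1 were clear at small ratios. The median member log2 ratio was 0.20 on encorafenib and 0.22 untreated, against 0.04 and −0.02 for the protein-coding genes tested. With scaling by total counts 9 members were clearly higher on encorafenib, but that scaling moved the median gene by 0.81 there. The share of all entries clearly higher under it was not computed. These ratios share libraries with the drug ratios above, so the 4 comparisons are not independent.

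DNAJB1 was higher in resistant cells with and without the drug. On encorafenib it had 73 counts in resistant against 28 in sensitive cells (0.87, 0.24 to 1.57), and untreated it had 60 against 50 (0.71, 0.14 to 1.28). Both resistant libraries, with 73.4 and 58.7 scaled counts, lay above both sensitive ones, with 39.7 and 35.9. DNAJB1 overlaps the coding gene TECR and a microRNA gene on the opposite strand, so reads from these could be counted with it if strand was not used.

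HSP90AB1 was also higher in resistant cells in both comparisons, at 0.58 (0.32 to 0.85) on encorafenib and 0.17 (0.01 to 0.33) untreated. The untreated value lost its clear interval under 2 of the 6 other scalings tried (total, protein-coding or DESeq2 scaling, and TMM over 3 other sets of entries). HSPA8 had 0.25 (0.00423 to 0.50) on encorafenib and 0.22 (0.02 to 0.41) untreated, and the first value was no longer clear under 4 of 6 other scalings and the second under scaling by protein-coding counts. With that scaling 4 of 9 members were clearly higher in untreated resistant cells. HSP90AA1 was at 0.18 (−0.06 to 0.42) on encorafenib and at 0.40 (0.21 to 0.58) untreated, from 473 counts in resistant and 490 in sensitive cells. HSPH1 was at −0.16 (−0.57 to 0.27) on encorafenib and at 0.48 (0.15 to 0.82) untreated, from 155 and 151 counts. For both genes the untreated resistant library was the highest of the 4.

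The mitochondrial members differed from each other in the comparison of the lines. HSPE1 was at 0.70 (−0.29 to 1.84) on encorafenib and at 0.82 (0.31 to 1.35) untreated, where it had 74 counts in resistant and 57 in sensitive cells. HSPD1 was the single member clearly lower in untreated resistant cells (−0.40, −0.72 to −0.09; not clear with scaling by total counts), and on encorafenib its ratio was −0.05 (−0.52 to 0.43). HSPA9 was at 0.20 (−0.41 to 0.84) on encorafenib and −0.20 (−0.77 to 0.34) untreated. HSPA4 was at −0.01 (−0.49 to 0.48) on encorafenib and −0.02 (−0.40 to 0.36) untreated, and had the smallest span of all members over the 4 libraries.

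A fit over all 4 libraries, in which line and drug act additively, gives the one adjusted p-value the design allows. It was made with edgeR's quasi-likelihood test over 7092 entries with at least 10 counts in 2 or more libraries, and its 1 residual degree of freedom comes from how far the drug response differs between the lines, not from replicates. For the drug, HSPE1 was the member called lower (log2 −1.33, adjusted p = 0.0359), against 2.34% of entries called lower. HSP90AB1 (−0.84, adjusted p = 0.184) and HSPD1 (−0.67, adjusted p = 0.27) were not called in this edgeR fit. With edgeR on protein-coding genes only, HSP90AB1 was called lower beside HSPE1, as were 320 of all 6330 entries in that fit. With DESeq2 the adjusted p of HSPE1 was 0.624, and over all the alternatives tried it ran from 0.00239 to 0.624. For the line, 0 members were called by edgeR against 2.44% of entries in either direction, and DESeq2 and limma-voom called 0 as well. An unadjusted p under 0.05 by edgeR was found for 2 of the 9 members (DNAJB1 and HSPE1), and for 963 of all 7092 entries. The adjusted p by edgeR was 0.267 for DNAJB1 (log2 0.76) and 0.313 for HSPE1 (log2 0.75).

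The drug responses of the lines were also set against each other, as the log2 ratio in resistant minus that in sensitive cells. The median over members was 0.03, beside 0.05 over the protein-coding genes tested, and 2 of the 9 intervals were clear of 0, against 15.5% of all entries in either direction. The 7 that held 0 do not show that the responses were alike. HSP90AB1 had a difference of 0.41 (0.11 to 0.71), its decrease being smaller in resistant cells. HSPH1 had a difference of −0.64 (−1.16 to −0.12), with log2 ratios of −0.45 in resistant and 0.19 in sensitive cells. Both differences rest on single libraries, and scaling by total counts turned that of HSPH1 to 0.068 and moved that of HSP90AB1 further from 0.

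Ratios between members within a library need no scaling. HSP90AA1 had 1.01 counts for each count of HSP90AB1 in resistant cells on encorafenib (interval 0.877 to 1.17) and 0.792 in untreated resistant cells (0.701 to 0.895). In sensitive cells the ratio was 1.34 on encorafenib (1.10 to 1.64) and 0.677 untreated (0.602 to 0.760). The balance of the isoforms therefore lay further towards HSP90AA1 with the drug in each line, by 1.28 times in resistant (1.06 to 1.55) and 1.98 times in sensitive cells (1.57 to 2.50). Resistant cells had 0.756 times the ratio of sensitive cells on encorafenib (0.590 to 0.968) and 1.17 times untreated (0.988 to 1.39). In 2 of its 10 annotated transcripts HSP90AA1 overlaps the coding gene WDR20 on the opposite strand. Reads of WDR20 could be counted with it if strand was not used.

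HSPE1 and HSPD1 assemble into one chamber but their counts did not keep one ratio. HSPE1 over HSPD1 was 0.308 in resistant cells on encorafenib (0.194 to 0.475) and 0.565 untreated (0.419 to 0.757). In sensitive cells it was 0.179 on encorafenib (0.0882 to 0.334) and 0.242 untreated (0.178 to 0.324). The untreated resistant library stood highest, 2.33 times the untreated sensitive one (1.53 to 3.59), and 2.32 times with the readthrough entry added. Encorafenib over untreated was 0.546 in resistant cells (0.314 to 0.931), and 0.772 with the readthrough entry added, where the interval (0.478 to 1.24) held 1. In sensitive cells it was 0.742 (0.342 to 1.5), and 1.19 with the readthrough entry added (0.650 to 2.13), so that no direction can be given there. For HSPH1 over HSPA4 and DNAJB1 over HSPA8, every interval of the ratio between libraries held 1.

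**Figure D3:**
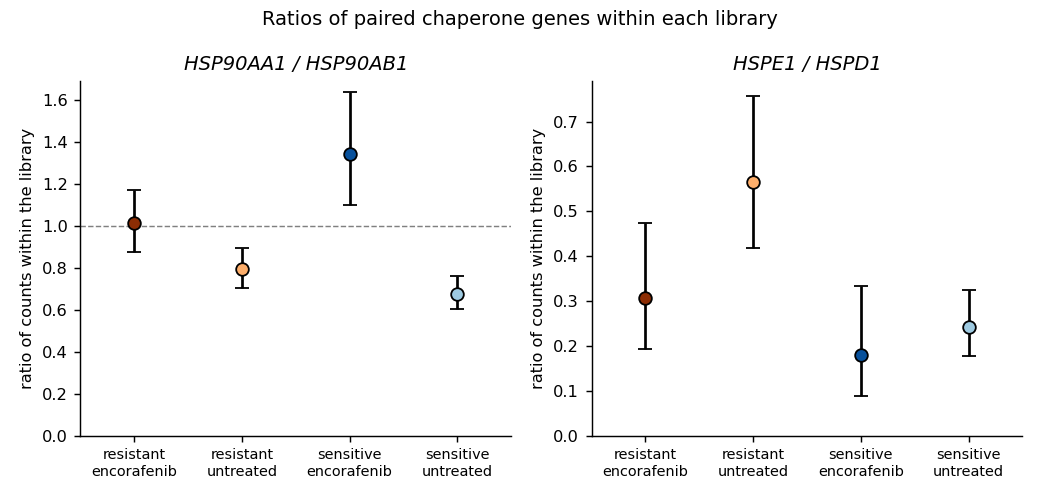
Ratio of counts within each library (y axis, from 0) for HSP90AA1 over HSP90AB1 and HSPE1 over HSPD1, with 95% counting intervals. The HSP90 ratio is 1.01 and 1.34 in the encorafenib libraries and 0.792 and 0.677 in the untreated ones, and the HSPE1 ratio is highest in untreated resistant cells at 0.565.

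The snoRNA genes inside HSPA9 stood far higher in resistant cells, unlike their host. SNORD63 had 3235 counts in resistant against 456 in sensitive cells on encorafenib, and 1560 against 245 untreated. Its log2 ratio was 2.33 (2.19 to 2.48) on encorafenib and 3.11 (2.92 to 3.32) untreated, while HSPA9 had 0.20 and −0.20. SNORD63B, a second copy in HSPA9, had 234 against 57 counts on encorafenib (1.53) and 199 against 36 untreated (2.90). With drug, SNORD63 was higher in both lines, by 1.09 (1.01 to 1.18) in resistant and 1.88 (1.65 to 2.11) in sensitive cells, while HSPA9 showed no clear difference. SNORD63B was at 0.27 (its interval held 0) with drug in resistant and at 1.64 (1.02 to 2.29) in sensitive cells. In the additive edgeR fit the line effect was 2.70 for SNORD63 (adjusted p = 0.00311) and 2.18 for SNORD63B (adjusted p = 0.0132), and the drug effect on SNORD63 was 1.47 (adjusted p = 0.0387).

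The 3 snoRNA genes of HSPA8 stayed nearer to their host and did not move as one. SNORD14D was the most abundant, with 9996 counts in resistant cells on encorafenib, 11529 in untreated resistant, 7478 in sensitive on encorafenib and 11383 in untreated sensitive cells. With drug it was at −0.16 (−0.20 to −0.13) in resistant and 0.37 (0.33 to 0.42) in sensitive cells. SNORD14C had 6408 against 4036 counts in resistant (0.71) and 3047 against 4636 in sensitive cells (0.38), and SNORD14E was at 0.10 and 0.48. Between the lines the 3 had log2 ratios of −0.07 to 0.58 on encorafenib and 0.25 to 0.46 untreated, beside 0.25 and 0.22 for HSPA8. With scaling by total counts all 3 turned negative for the drug in sensitive cells.

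Over the tables as a whole, snoRNA and host ratios showed little relation. Across 175 pairs of a snoRNA and its protein-coding host, on 103 hosts, Spearman's rho of the log2 ratios was 0.03 on encorafenib and −0.04 untreated for the lines, and −0.01 in resistant and 0.05 in sensitive cells for the drug. Pearson's r was 0.11, 0.02, 0.03 and 0.07 in the same order. These pairs share libraries and scaling, and several share a host. Hosts needed only 10 counts in 1 library, and counting error in low-count ratios can pull such correlations towards 0. Values near 0 therefore do not show that snoRNA and host were independent. In untreated cells 3 of the 175 pairs had a larger snoRNA-minus-host difference than SNORD63, and 6 did on encorafenib. Over 315 snoRNA entries tested, the median drug log2 ratio was 0.53 in resistant and 0.87 in sensitive cells, above which SNORD63 lay in both lines. SNORD63B lay above that median in sensitive (1.64) and below it in resistant cells (0.27). SNORD14C, SNORD14D and SNORD14E lay below it in sensitive cells (0.37 to 0.48). In resistant cells SNORD14C (0.71) lay above it, and SNORD14D (−0.16) and SNORD14E (0.10) below. A few annotated transcripts of HSPA8 and HSPA9 have exons over these snoRNAs (2 of 24 for SNORD14C and for SNORD14D, and 1 of 16 for SNORD63), so mature snoRNA reads could in principle be counted for the host.

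**Figure D4:**
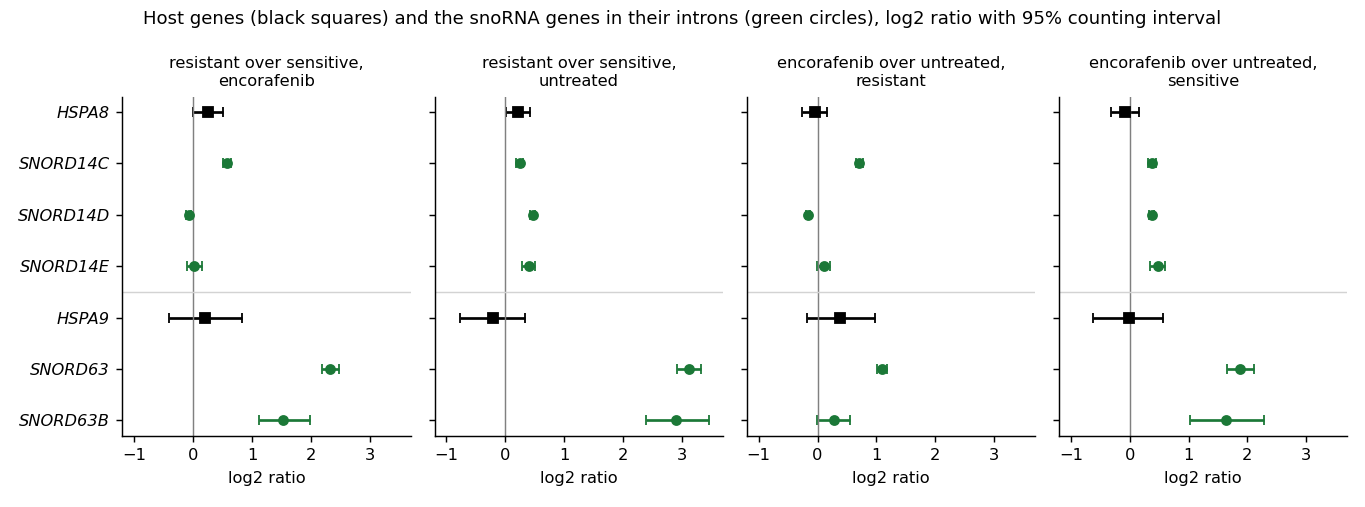
Log2 ratio of scaled counts (x axis) with 95% counting intervals for HSPA8, HSPA9 and the snoRNA genes in their introns, in the 4 comparisons. SNORD63 is at 2.33 and 3.11 for resistant over sensitive cells while HSPA9 is at 0.20 and −0.20.

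Several members have many processed copies in the genome, which can take up or lend reads. The table has 61 pseudogene entries named after a member, and 60 of them were listed at 0 in every library. The exception, HSP90AB4P, had 1 to 3 counts. Of all 7222 pseudogene entries not marked as transcribed, 72 (0.997%) had any count, so zeros at the copies carry no information on where shared reads went. No member had the same counts as another entry in all 4 libraries.

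Other chaperone genes were counted from lists of their own. The cytosolic chaperonin TRiC and its partner prefoldin, fold actin and tubulin. With encorafenib 7 of 14 subunits were clearly lower in resistant and 7 in sensitive cells, and 0 were higher in either line. Of all entries 9.36% were clearly lower and 12.2% higher in resistant cells, and 13.2% lower and 14.7% higher in sensitive cells. Scaling by total counts moved the median gene by −0.58 in sensitive cells and gave 12 subunits lower there. The share of all entries clearly lower under it was not computed. The median log2 ratio of the subunits was −0.71 in resistant and −0.59 in sensitive cells. CCT2, CCT3, PFDN2 and PFDN4 were clearly lower in each line. CCT3 had 47 against 93 counts in resistant (−0.94) and 27 against 128 in sensitive cells (−1.24), and CCT2 had 40 against 89 (−1.10) and 31 against 119 (−0.94). PFDN2 had 23 against 51 counts in resistant (−1.09) and 13 against 79 in sensitive cells (−1.58). It was the one subunit of 14 called by the additive edgeR fit (−1.35, adjusted p = 0.0387), against 2.34% of entries called lower. TCP1 was at −1.27 in resistant and 0.00 in sensitive cells, where it had no clear difference. Between the lines 2 subunits were clearly higher on encorafenib (PFDN5, and CCT7 under 3 of 6 other scalings), and untreated 2 were higher (CCT4 and PFDN5) and 1 lower (PFDN4). Of all entries 11.3% were clearly higher on encorafenib, and 12.7% were higher and 11.4% lower untreated.

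Co-chaperones of HSP70 and HSP90 showed fewer clear differences. Of 24 measured, 4 were clearly lower and 1 higher with drug in resistant cells, where 9.36% and 12.2% of all entries were. In sensitive cells 2 were lower and 1 higher, where 13.2% and 14.7% of all entries were, so both counts in sensitive cells are below the background. In resistant cells the share lower was above the background and the share higher below it. AHSA1, the activator of the HSP90 ATPase, had 52 against 91 counts in resistant (−0.76) and 24 against 76 in sensitive cells (−0.66), the second no longer clear under 4 of 6 other scalings, and was higher in untreated resistant than sensitive cells (0.70). CHORDC1 was at −1.23 with drug in resistant cells and FKBP4, an HSP90-binding immunophilin, at −1.52 in sensitive cells from 4 against 25 counts. Clearly higher with drug were the ubiquitin ligase STUB1 in resistant cells (0.64) and the HSP40 protein DNAJA1 in sensitive cells (0.58, not clear with scaling by total counts). CDC37, which loads kinases onto HSP90, had 170 against 217 counts in resistant cells (−0.31, clear under 3 of 6 other scalings). Between the lines HSPBP1 was higher on encorafenib (1.22) and BAG5 lower untreated (−0.80, not clear with scaling by total counts). TTC4 was the fourth lower in resistant cells, on 2 against 11 counts. The additive edgeR fit called 0 of 23 for line or drug, where it called 2.44% of entries for the line and 2.34% lower for the drug.

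Among inducible heat shock proteins and heat shock factors, HSPA1A was higher in resistant cells. It had 33 against 6 counts on encorafenib (1.87, 0.69 to 3.51) and 26 against 9 untreated (1.93, 0.84 to 3.26), with an additive edgeR line effect of 1.93 (adjusted p = 0.039). Its near-identical neighbour HSPA1B had 18 against 1 and 15 against 4 counts, and reads of the 2 genes cannot be told apart with certainty. Of 10 listed genes at the count minimum, these 2 were clearly higher in resistant cells on encorafenib, and untreated DNAJB4 was too (7 against 1 counts). Of all entries 11.3% were clearly higher on encorafenib and 12.7% untreated. With drug 0 of the 10 listed genes were clear in resistant cells, and in sensitive cells BAG3 was lower (7 against 34 counts, −1.22) and DNAJB4 higher on 5 against 1 counts. Of all entries 13.2% were clearly lower and 14.7% higher with drug in sensitive cells. Mitochondrial import, folding and protease genes had 2 clearly higher with drug in resistant cells (YME1L1 at 0.55, and DNAJC19 on 9 against 1 counts) and 1 lower in sensitive cells (TRAP1, the mitochondrial HSP90, with 11 against 46 counts, −1.03), of 15 measured. These counts are near or below the background of 12.2% higher in resistant and 13.2% lower in sensitive cells. Between the lines 1 was lower on encorafenib (HTRA2, 7 against 14 counts) and 1 untreated (DNAJC19, 1 against 10 counts), against 8.78% and 11.4% of all entries.

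Endoplasmic reticulum chaperones, which fold secreted proteins, were next. In resistant cells 4 of 18 were clearly higher than in sensitive cells on encorafenib and 7 untreated, 0 were lower, and the median log2 ratio was 0.39 and 0.41. Of all entries 11.3% were clearly higher and 8.78% lower on encorafenib, and 12.7% higher and 11.4% lower untreated. The 4 on encorafenib were P4HB, HSPA5, DNAJC3 and SIL1. Their number was 8 with no count minimum and 15 with scaling by total counts, but 3 under each of the 4 other scalings, where DNAJC3 was not clear. The shares of all entries under these other scalings were not computed. P4HB, a disulfide isomerase, had 162 against 57 counts on encorafenib (1.01) and 143 against 91 untreated (1.10). HSPA5 (BiP), the HSP70 of this compartment, was at 0.45 on encorafenib and 0.52 untreated, and in untreated cells CALR was at 0.51 and HSP90B1 at 0.35. With drug CALR was higher in both lines, at 0.36 in resistant and 0.68 in sensitive cells, PDIA3 was higher in sensitive cells (0.57) and SEL1L in resistant cells (1.57). HSP90B1, the HSP90 of this compartment, was at −0.28 with drug in resistant cells. With scaling by total counts CALR and PDIA3 in sensitive cells and HSP90B1 in resistant cells were not clear. The edgeR fit called 0 of 17 for line or drug, where it called 2.44% of entries for the line and 2.34% lower for the drug. For comparison, of 12 outputs of the kinase pathway that encorafenib blocks, 10 were clearly lower with drug in resistant and 9 in sensitive cells. The background was 9.36% and 13.2% of all entries. The fit called 7 of these 12 outputs lower, among them IER3, EGR1 and CCND1, against 2.34% of the entries it tested.

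**Figure D5:**
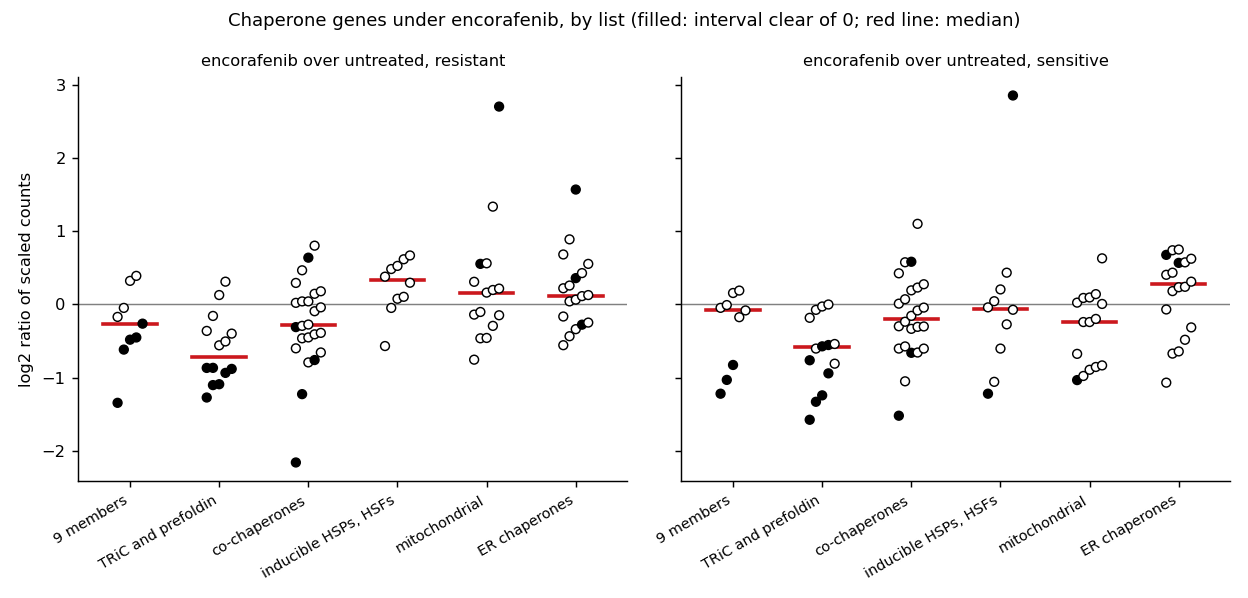
Log2 ratio of encorafenib over untreated scaled counts (y axis) for the 9 members and 5 lists of chaperone genes at the count minimum, in resistant and in sensitive cells. Each point is a gene, filled where its interval is clear of 0, and red lines are medians; the median of TRiC and prefoldin subunits is −0.71 in resistant and −0.59 in sensitive cells, and the isolated filled points above 2 are DNAJC19 and DNAJB4, which rest on 9 against 1 and 5 against 1 counts.

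The genes whose pattern over the 4 libraries was most like the members' mean were found by the distance between centred log2 scaled counts, among the 189 protein-coding genes whose lowest library still held 100 counts or more. The nearest was CDC37 (distance 0.0935), and RPL19 (0.185), RPLP1 (0.190) and RPS10 (0.193) were also among the nearest. The mean profile they were matched to ran, as centred log2 values, at −0.02 in resistant cells on encorafenib, 0.28 in untreated resistant, −0.30 in sensitive on encorafenib and 0.04 in untreated sensitive cells. Of the members themselves HSP90AA1 (0.213) and HSPA8 (0.257) lay nearest to that mean, and HSPE1 (1.10) and DNAJB1 (0.767) farthest. With 4 points per gene such a match is a description only.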

How the data were processed

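Total RNA of A375-R and A375-S cells was made into 4 libraries with a small-RNA kit (SMARTer smRNA-Seq) and sequenced on an Illumina NextSeq instrument, per the labels' protocols. The authors deposited gene tables of raw counts, one per library, made on build hg19 (submitters' processing notes). Neither the alignment and counting tools nor the use of strand or the treatment of reads fitting several places was stated there. Tables of microRNA counts were not used here. Members and gene lists were chosen with earlier results of these data known.

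Scaled counts are deposited counts divided by TMM library sizes relative to their geometric mean (edgeR 4.0.16, R 4.3.3). Ratios used a prior count of 0.5 and exact conditional (Clopper-Pearson) 95% intervals (scipy 1.17.1); differences of responses used delta-method intervals. The additive fit used the quasi-likelihood method of edgeR, with p-values adjusted (Benjamini-Hochberg, 0.05) over all entries tested; DESeq2 1.42.0 and limma 3.58.1 were alternatives. The scripts for ratios and fits were tested on simulated data. Beside the 9 members, the text names up to 4 genes per list and comparison with the largest bound nearest 0 and at least 20 counts in the higher library, the 5 most alike genes (of which 1 is not reported here), DUSP6 and SPRY4; HSPA1B, DNAJB4, DNAJC19, HTRA2, TTC4, SIL1 and the cell markers were added for completeness. Transcript lengths and overlaps are from GENCODE v29, matched by symbol. Depth was 20507667 to 33664470 counts per library, and the 3 counts that a listed 0 leaves possible equal 2.15 to 4.25 scaled counts.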

Additional observations from a re-analysis of the deposited data

Results flagged for a closer look

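SNORD14D, in an intron of HSPA8, was lower with encorafenib in resistant cells (log2 −0.16) and higher in sensitive cells (0.37), both intervals leaving out 0. Both values lay below the median of the snoRNA entries tested, 0.53 in resistant and 0.87 in sensitive cells. The response of SNORD14D in resistant minus that in sensitive cells was −0.54. With 1 library per group this difference was not tested, and scaling by total counts turned it to 0.17.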

How the results depend on the processing

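No paired analysis was possible because each group has 1 library and the labels give no replicate numbers; for the same reason no library could be left out. Scaling by total counts, which follows ribosomal RNA, moved the median gene by 0.81 for the lines on encorafenib, 0.10 untreated, 0.13 for the drug in resistant and −0.58 in sensitive cells, and most changes came with it. The shares of all entries that were clear under this scaling were not computed. Under it, members clearly higher in resistant cells on encorafenib numbered 9 with 2 beyond 2-fold (median 1.01), and 0 were lower untreated. With drug it gave 2 clearly lower in resistant cells, and 8 lower with 2 beyond 2-fold in sensitive cells (median −0.67), and the median difference of responses was 0.74. It also reversed SNORD14C (−0.21), SNORD14D (−0.21), SNORD14E (−0.11) and PDIA3 (−0.015) for the drug in sensitive cells, SNORD14D on encorafenib between lines (0.74; 0.014 with no count minimum), and the response differences of HSPH1 (0.068), SNORD14D (0.17) and SNORD14E (0.33). The other scalings, prior and count minimums moved no member's ratio out of its interval. A bound of 1.5-fold gave 1 member in each drug comparison, and the share of all entries at that bound was not computed. Counting clear intervals gave 3 on encorafenib and 7 untreated for the lines, and 5 in resistant and 3 in sensitive cells for the drug. The additive drug effect called 0 members with DESeq2, with total counts as library sizes and without the other factor. With edgeR on protein-coding genes only it called 2 lower, HSP90AB1 and HSPE1, where 320 of 6330 entries were called lower. The cause of these changes was not tested. Of the 9 ranks per kilobase, 5 stayed with coding length and 2 with median transcript length. HSPE1 with HSPE1-MOB4 was chosen after seeing the data. Low counts limit HSPE1, HSPA9 and DNAJB1 most.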
